A study of Mus musculus with 11 samples.

Results

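The genes described here encode the enzymes that make and break down polyamines and the proteins that set the level of the first enzyme of the route. They are *Odc1*, *Amd1*, *Srm*, *Sms*, *Oaz1*, *Oaz2*, *Azin1*, *Sat1* and *Smox*, and all 9 names were found in the table of 12932 genes. The set was put together around *Sat1*, which was chosen by its measured values, since its CPM in this table lay above the control cells in mature RXR-deficient macrophages and below them in immature ones. The values of *Sat1* are therefore given as a description, without a test. The other 8 genes were taken for their place in the pathway, in a choice made with earlier results of these data known, so their tests are not independent of that choice.

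Putrescine, spermidine and spermine are small, positively charged amines that bind nucleic acids and are needed for growth and translation. Ornithine decarboxylase (*Odc1*) turns ornithine into putrescine, and spermidine synthase (*Srm*) and spermine synthase (*Sms*) lengthen it with aminopropyl groups from S-adenosylmethionine that has been decarboxylated by the *Amd1* product. Antizymes (*Oaz1*, *Oaz2*) bind ornithine decarboxylase and send it to the proteasome, and antizyme inhibitor (*Azin1*) takes up antizyme in its place. The *Sat1* enzyme acetylates spermidine and spermine, which marks them for export or oxidation, while spermine oxidase (*Smox*) turns spermine back into spermidine with release of hydrogen peroxide. In macrophages, arginase supplies the ornithine with which the route begins.

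RNA was sequenced from alveolar macrophages (AMs) sorted from mice with loxP-flanked *Rxra* and *Rxrb*, which encode the nuclear receptors RXRα and RXRβ. The controls were CD11b-/SiglecF+ mature AMs (mAMs) of Rxrab fl/fl mice without Cre (mAM_WT, n = 4). They were compared with mAMs of Cd11c Cre+ Rxrab fl/fl mice (mAM_KO, n = 3, with a 4th library described beside them) and with CD11b+/SiglecF+ immature AMs (ImmAMs) of the same Cre+ genotype (Imm_KO, n = 3). Mice were 9-week-old littermates of both sexes on a C57BL/6J background, and the libraries are described as individual biological replicates. All 3 groups carry the floxed alleles. The Cre is driven by the *Cd11c* promoter, which is also active in other CD11c+ cells, and no Cre+ group without floxed alleles was sequenced, so the presence of Cre and the deletion cannot be told apart. ImmAMs were sequenced from the Cre+ genotype only, so the stage of the cells and their genotype cannot be told apart in Imm_KO against mAM_WT.

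The libraries held 16659960 to 37873532 reads on the genes of the table. *Rxra*, counted over the whole gene and not over the deleted part, stood at 344 ± 29.0 CPM (reads as a share of the TMM-scaled library; mean ± SD) in mAM_WT, 344 ± 9.12 in mAM_KO and 291 ± 12.2 in Imm_KO, and *Rxrb* at 59.8 ± 9.29, 46.1 ± 6.79 and 33.5 ± 1.64 CPM. From its own measurements of relative mRNA, the study reported that both genes were efficiently deleted in mAMs and ImmAMs. The 10 AM markers were all present, with a summed CPM of 20330 to 31474 over the 10 libraries, most of it *Chil3* (13182 to 23887 CPM). Of these 10, 8 were lower and 1 (*Chil3*) was higher in Imm_KO against mAM_WT in limma, where *Marco* stood at 12.6 against 342 CPM, *Ear2* at 80.0 against 2140, *Cidec* at 8.95 against 388 and *Fabp4* at 28.7 against 159. In Imm_KO, *Itgam* (CD11b) stood at 168 to 174 CPM against 3.52 to 3.85 in mAM_WT, and *Siglecf* at 19.3 to 19.7 CPM against 244 to 264. Summed monocyte markers (4 of 6 in the table, without *Ly6c2* and *Plac8*) held 14.8 to 20.7 CPM in mAM_WT libraries, 20.3 to 35.1 CPM in mAM_KO libraries and 256 to 259 CPM in Imm_KO libraries. Most of the Imm_KO sum was *Itgam*, which encodes the CD11b by which the ImmAMs were sorted. Of the 4 markers, 3 were higher in Imm_KO against mAM_WT in limma, and *Vcan* was not (means of 2.46 against 2.75 CPM). Interstitial macrophage markers (5 of 7) summed to 1.07 to 2.31, 3.55 to 11.2 and 288 to 313 CPM in the order mAM_WT, mAM_KO and Imm_KO. Neutrophil markers (5 of 7, without *Ly6g* and *Ngp*) summed to 52.0 to 60.3, 110 to 335 and 897 to 971 CPM. Most of the increase was in *Mmp8*, which the study names among the AM genes, at 25.7, 178 and 884 CPM on average. Means of *Csf3r* were 24.7, 24.4 and 34.4 CPM and of *S100a8* 4.77, 5.76 and 14.4 CPM, both higher in Imm_KO against mAM_WT in limma. Dendritic cell markers (2 of 6) summed to 5.40 to 7.24, 6.16 to 8.12 and 20.7 to 24.1 CPM, epithelial markers (2 of 6) to 7.81 to 14.2 in the mAM libraries and 1.42 to 2.80 CPM in Imm_KO, and none of 4 eosinophil markers was in the table. The 6 genes of dividing cells summed to 441 to 543, 398 to 472 and 117 to 131 CPM. These sums differ between the same groups as the polyamine genes, and their part in the differences below was not tested. In bulk RNA, a change in the number of cells of a kind and a change in the RNA per cell cannot be told apart.

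*Sat1* (ENSMUSG00000025283; chrX:155213132-155216449, minus strand, GRCm38) was the most abundant of the 9 genes for its length. The 4 mAM_WT libraries stood at 430, 378, 424 and 350 CPM (replicates 1 to 4), the mAM_KO libraries at 516, 460 and 480 CPM (replicates 1 to 3) and the Imm_KO libraries at 344, 335 and 346 CPM (replicates 2 to 4). The 3 groups did not overlap, with mAM_KO above and Imm_KO below mAM_WT, although the nearest control library lay only 4.04 CPM above the highest Imm_KO library. The 4th mAM_KO library, which was not used in the comparisons, held 441 CPM of *Sat1* and also lay above every control. It belongs to the same table as the values by which *Sat1* was chosen, so it is no independent check. Means were 396 ± 37.95 CPM in mAM_WT, 485 ± 28.5 in mAM_KO and 342 ± 5.96 in Imm_KO, a ratio to mAM_WT of 1.23 in mAM_KO and of 0.864 in Imm_KO. On the log2 scale, the fitted differences were 0.30 for mAM_KO against mAM_WT, −0.21 for Imm_KO against mAM_WT and −0.50 for Imm_KO against mAM_KO. Of all genes tested, 84.9% were at or below the *Sat1* difference in mAM_KO against mAM_WT, and 33.7% in Imm_KO against mAM_WT. Quantile normalization brought the latter difference to −0.09.

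Since *Sat1* and *Sms* are X-linked and the mice were of both sexes, the X-inactivation transcript *Xist* was read beside them. Its range was 119 to 539 CPM for mAM_WT, 55.5 to 458 CPM for mAM_KO and 302 to 345 CPM for Imm_KO. Y-linked *Ddx3y* was read in every library as well, at 39.7 to 107 CPM, so each library held RNA of both sexes. The study's legends count these groups in mice, which reads as individual animals and conflicts with RNA of both sexes in each library. Pooling of animals for these libraries is not described in the sources used here, and the conflict was not resolved. The p-values measure the spread between these libraries, whatever number of animals each holds. Within mAM_KO, the library with the least *Xist* (replicate 2, 55.5 CPM) had 460 CPM of *Sat1* and that with the most (replicate 1, 458 CPM) had 516 CPM. With *Xist* as a covariate, the *Sat1* differences were 0.31 in mAM_KO and −0.23 in Imm_KO against mAM_WT.

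**Figure D1:**
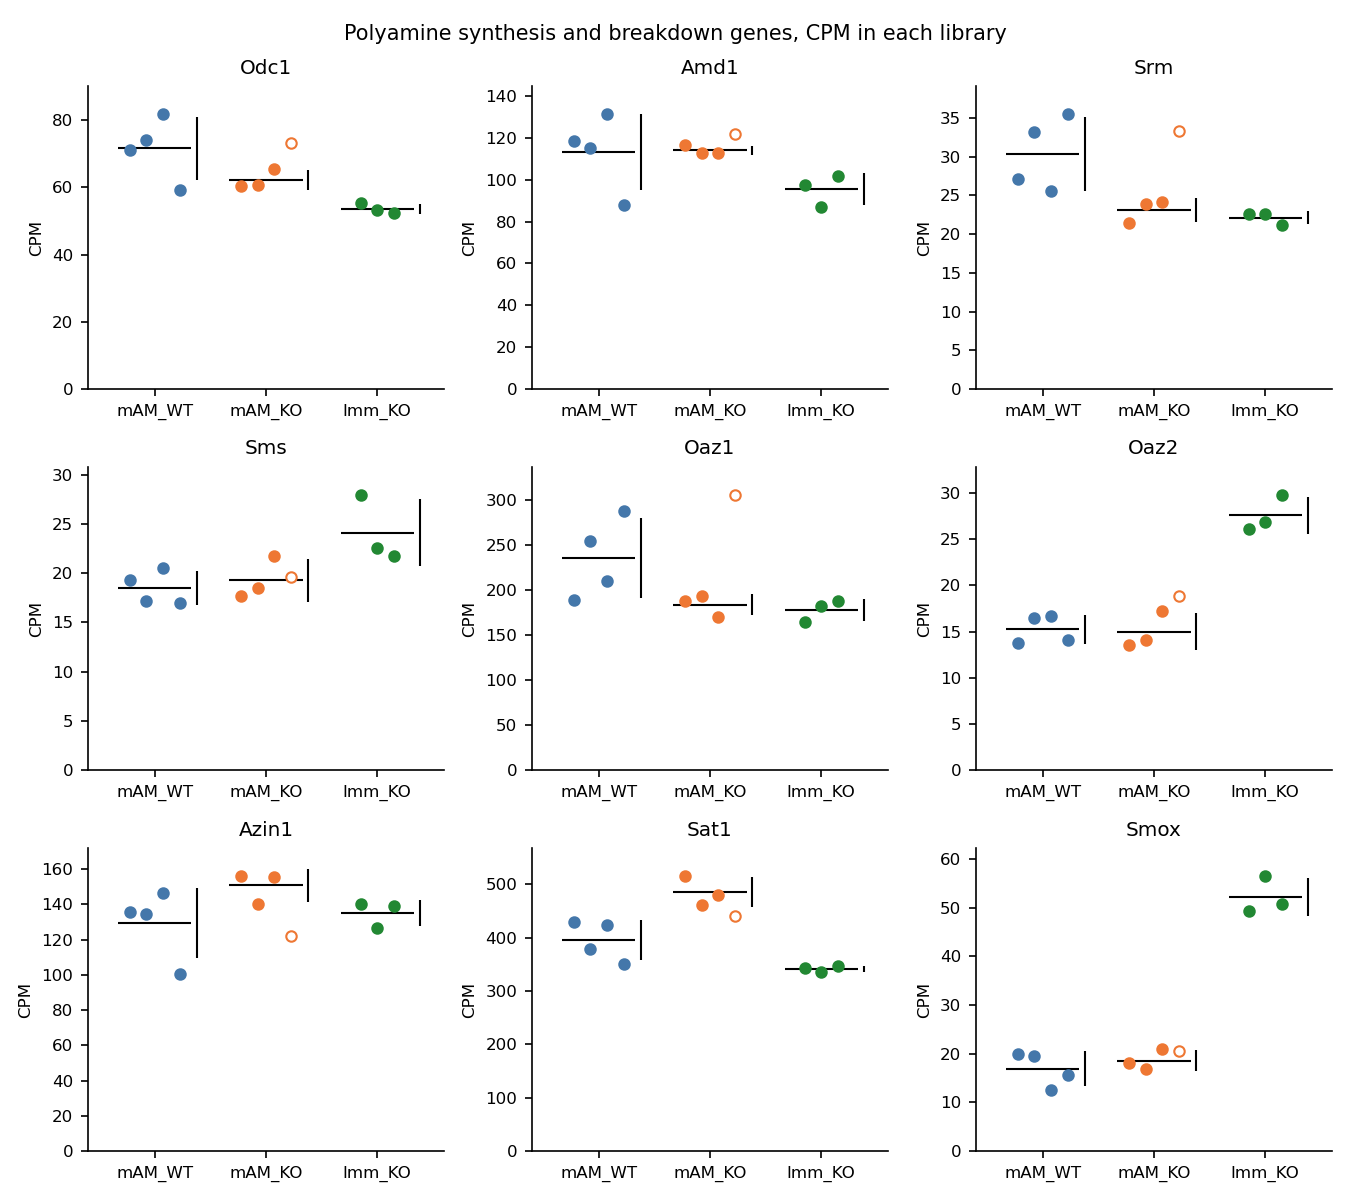
CPM of the 9 genes in each library (points), by group, with the group mean (horizontal line) and SD (vertical line) and an axis that starts at 0. The open point is mAM_KO replicate 4, which is not in the mean. *Smox* and *Oaz2* stand apart in Imm_KO, and *Sat1* lies above the controls in mAM_KO and below them in Imm_KO.

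Of the other 8 genes, none differed between mAM_KO and mAM_WT at a p-adj under 0.05 (limma, Benjamini-Hochberg over all genes tested), with 0 higher beside 2.25% of all 12889 genes tested and 0 lower beside 2.59%. At an unadjusted p under 0.05, limma, edgeR and DESeq2 each listed 2 of the 8, *Srm* and *Oaz1*, both lower in mAM_KO. Of all 12889 genes, these tools listed 3042, 2982 and 3057 in the same order. After adjustment DESeq2 alone kept both, and it called 1352 of all genes, where limma called 624. In Imm_KO against mAM_WT, 3 of the 8 were higher (*Smox*, *Oaz2* and *Sms*), beside 22.8% of all genes, and 3 were lower (*Odc1*, *Srm* and *Oaz1*), beside 25.3%. In Imm_KO against mAM_KO, 2 were higher (*Smox* and *Oaz2*), beside 17.7% of all genes, and 0 were lower, beside 20.2%. With 8 genes, these counts are a description and are not told apart from the shares over all genes. The median log2 fold change of the 8 genes in Imm_KO against mAM_WT was −0.08, beside 0.00 over all genes, and their median size without sign was 0.40, beside 0.36. Both comparisons with mAM_WT share the same control libraries, as both comparisons with Imm_KO share theirs.

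**Figure D2:**
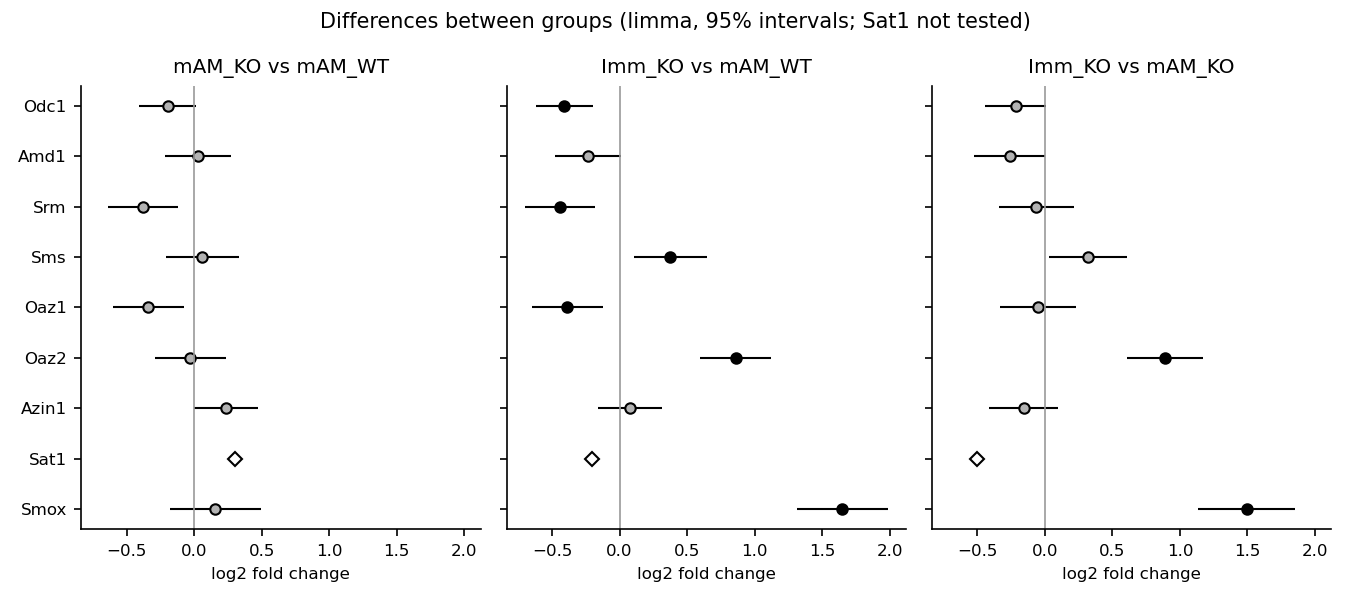
Log2 fold change of each gene (x axis) in the 3 comparisons, with 95% intervals of the limma fit. Filled black points are called at a p-adj under 0.05, grey points are not, and the open diamonds are *Sat1*, which was not tested. *Smox* (1.65 and 1.49) and *Oaz2* (0.86 and 0.89) lie far to the right in both Imm_KO panels.

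Promoter sequences are shown for *Sat1*, for *Smox* and *Oaz2*, which had the largest differences, and for *Sms*, because RXRs are DNA-binding proteins and their partners bind repeats of AGGTCA. Each is the 250 bases before a RefSeq start site (GRCm38.p6), 5′ to 3′ on the strand of the gene. The hexamers AGGTCA and CACGTG (the E-box bound by MYC) were searched on both strands, and matches are in capitals.
Sat1 (chrX:155216450-155216699, minus strand): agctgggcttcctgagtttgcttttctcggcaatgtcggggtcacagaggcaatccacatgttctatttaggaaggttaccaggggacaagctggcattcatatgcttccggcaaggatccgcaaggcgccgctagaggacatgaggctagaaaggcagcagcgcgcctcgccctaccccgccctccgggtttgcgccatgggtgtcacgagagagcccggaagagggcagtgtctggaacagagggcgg
Smox (chr2:131491612-131491861, plus strand): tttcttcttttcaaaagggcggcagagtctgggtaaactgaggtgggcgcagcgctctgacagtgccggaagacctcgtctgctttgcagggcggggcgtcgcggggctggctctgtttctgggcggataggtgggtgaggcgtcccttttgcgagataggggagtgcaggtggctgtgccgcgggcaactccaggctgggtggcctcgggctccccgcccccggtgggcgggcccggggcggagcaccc
Oaz2 (chr9:65676298-65676547, plus strand): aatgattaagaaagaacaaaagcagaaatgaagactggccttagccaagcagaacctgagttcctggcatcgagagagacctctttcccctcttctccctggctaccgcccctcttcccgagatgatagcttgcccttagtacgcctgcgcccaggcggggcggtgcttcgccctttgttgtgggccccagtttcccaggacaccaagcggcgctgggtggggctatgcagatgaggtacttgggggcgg
Sms (chrX:157492288-157492537, minus strand): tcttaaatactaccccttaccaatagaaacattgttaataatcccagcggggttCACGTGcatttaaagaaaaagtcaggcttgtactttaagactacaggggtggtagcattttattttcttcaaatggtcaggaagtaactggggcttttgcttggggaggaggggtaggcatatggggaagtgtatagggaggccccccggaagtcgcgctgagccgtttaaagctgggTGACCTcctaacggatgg
Neither hexamer occurs in the windows of *Sat1*, *Smox* and *Oaz2*, or in those of *Odc1*, *Amd1* and *Oaz1*. The *Sms* window shown holds 1 of each (AGGTCA as TGACCT), and a window at another *Sms* start site holds neither. Of 32851 promoter windows of this length, 14% hold AGGTCA and 6.02% hold CACGTG. A match says only that these letters are in the window, and a missing match says nothing about sites elsewhere. The study measured RXRα binding directly and placed more of its peaks in introns and between genes than in promoters. Those peaks were not read here.

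The 4 synthesis enzymes did not move as a block. *Odc1* (ENSMUSG00000011179; chr12:17544794-17551505, plus strand), the first enzyme of the route, stood at 71.1, 74.1, 81.9 and 59.2 CPM in mAM_WT, 60.4, 60.6 and 65.6 in mAM_KO and 55.2, 53.2 and 52.2 in Imm_KO. Every Imm_KO library was below every mAM library, while mAM_KO lay within the range of mAM_WT. *Odc1* fell in Imm_KO against mAM_WT by 0.41 on the log2 scale (SE 0.0973, p-adj = 0.00375, limma with Benjamini-Hochberg adjustment). Against mAM_WT, the mAM_KO difference of −0.19 did not pass (p-adj = 0.249), nor did Imm_KO against mAM_KO at −0.21 (p-adj = 0.123, limma), which passed without mAM_WT replicate 4 (p-adj = 0.0379, limma).

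*Srm* (ENSMUSG00000006442; chr4:148591503-148594993, plus strand), which makes spermidine, stood at 27.1, 33.2, 25.6 and 35.6 CPM in mAM_WT, 21.4, 23.9 and 24.2 in mAM_KO and 22.6, 22.7 and 21.2 in Imm_KO. Both Cre+ groups lay below every control library. They overlapped each other, with a difference of −0.06 for Imm_KO against mAM_KO (p-adj = 0.734, limma). *Srm* fell by 0.44 (SE 0.119, p-adj = 0.00816) in Imm_KO against mAM_WT in the limma fit with Benjamini-Hochberg adjustment. The mAM_KO difference of −0.38 (SE 0.119) had a p-adj of 0.0822 in limma, 0.0794 in edgeR and 0.0391 in DESeq2. The 4th mAM_KO library, at 33.3 CPM, lay within the control range, and with it the *Srm* difference was −0.25 (p-adj = 0.446, limma).

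*Sms* (ENSMUSG00000071708; chrX:157443855-157492287, minus strand), which makes spermine, went the other way. It stood at 19.3, 17.2, 20.5 and 17.0 CPM in mAM_WT, 17.7, 18.5 and 21.7 in mAM_KO and 28.0, 22.6 and 21.7 in Imm_KO, so the Imm_KO libraries lay above every control library. *Sms* rose by 0.38 (SE 0.124, p-adj = 0.0236) in Imm_KO against mAM_WT in limma, with replicate 2 the highest. Without Imm_KO replicate 2 the difference was 0.26 (p-adj = 0.125), and without mAM_WT replicate 2 it was 0.34 (p-adj = 0.0629, limma). The difference between Imm_KO and mAM_KO was 0.32 (p-adj = 0.0773) and that between mAM_KO and mAM_WT 0.06 (p-adj = 0.807, limma).

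*Amd1* (ENSMUSG00000075232; chr10:40287458-40302186, minus strand), which supplies the aminopropyl donor, stood at 119, 115, 132 and 87.9 CPM in mAM_WT, 117, 113 and 113 in mAM_KO and 97.7, 87.0 and 102 in Imm_KO. Imm_KO lay below mAM_KO without overlap and overlapped mAM_WT through replicate 4. No *Amd1* difference passed, at 0.03 (p-adj = 0.914), −0.23 (p-adj = 0.107) and −0.26 (p-adj = 0.111) in the order mAM_KO against mAM_WT, Imm_KO against mAM_WT and Imm_KO against mAM_KO (limma). The 95% intervals of the last pair ran from −0.48 to 0.01 and from −0.52 to 0.00. Replicate 4 of mAM_WT bears on these calls: without it, *Amd1* was lower in Imm_KO against mAM_WT (−0.35, p-adj = 0.00236) and against mAM_KO (−0.26, p-adj = 0.0167, limma).

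Against mAM_WT, the antizymes moved in opposite directions in Imm_KO. *Oaz1* (ENSMUSG00000035242; chr10:80826656-80829290, plus strand), the more abundant one, stood at 189, 255, 210 and 288 CPM in mAM_WT, 188, 193 and 170 in mAM_KO and 165, 182 and 187 in Imm_KO. The Imm_KO libraries lay below every control library, the nearest only 1.22 CPM apart. They overlapped the mAM_KO libraries, and the difference of Imm_KO against mAM_KO was −0.05 (p-adj = 0.801, limma). *Oaz1* fell by 0.39 in Imm_KO against mAM_WT (SE 0.121, p-adj = 0.0185, limma), but this call was close to the threshold. It was lost without Imm_KO replicate 2 (−0.33, p-adj = 0.0822), without mAM_WT replicate 2 (−0.34, p-adj = 0.0543), with all 11 libraries in the fit (p-adj = 0.0949), with quantile normalization (−0.29, p-adj = 0.0636) and without a variance trend (p-adj = 0.0528, limma). In mAM_KO the difference was −0.34 (p-adj = 0.115 in limma, 0.117 in edgeR and 0.0401 in DESeq2). The 4th mAM_KO library held 306 CPM of *Oaz1*, the highest of all 11, and brought that difference to −0.15 (p-adj = 0.718, limma).

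*Oaz2* (ENSMUSG00000040652; chr9:65668001-65690300, plus strand), whose product binds ornithine decarboxylase as well, was low in mAMs of either genotype. It stood at 13.8, 16.5, 16.7 and 14.1 CPM in mAM_WT, 13.5, 14.1 and 17.3 in mAM_KO and 26.1, 26.8 and 29.9 in Imm_KO. Every Imm_KO library was above every mAM library, the 4th mAM_KO library of 18.9 CPM included. *Oaz2* rose 1.81-fold by the ratio of means, or 0.86 on the log2 scale (SE 0.121, p-adj = 7.14e-05), against mAM_WT and 0.89 (SE 0.130, p-adj = 1.40e-04) against mAM_KO in limma. It did not differ detectably between mAM_KO and mAM_WT, where the difference was −0.03 with a 95% interval of −0.29 to 0.23.

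*Azin1* (ENSMUSG00000037458; chr15:38487427-38519266, minus strand), the antizyme inhibitor, stood at 136, 134, 146 and 101 CPM in mAM_WT, 156, 140 and 156 in mAM_KO and 140, 126 and 139 in Imm_KO. All 3 groups overlapped. Its differences of 0.23 in mAM_KO against mAM_WT (p-adj = 0.216), 0.08 in Imm_KO against mAM_WT (p-adj = 0.587) and −0.16 between Imm_KO and mAM_KO (p-adj = 0.321) did not pass in limma. Replicate 4 of mAM_WT and replicate 4 of mAM_KO were the lowest of the 11 libraries for *Azin1* and the highest for *Oaz1* and *Srm*.

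*Smox* (ENSMUSG00000027333; chr2:131491496-131525922, plus strand), the spermine oxidase, had the largest difference between Imm_KO and the mAM groups among the 9 genes. It stood at 20.0, 19.6, 12.4 and 15.6 CPM in mAM_WT, 18.1, 16.8 and 20.9 in mAM_KO and 49.3, 56.6 and 50.7 in Imm_KO. The lowest Imm_KO library held more than the highest mAM library by 28.4 CPM, and the mAM groups overlapped. *Smox* rose 3.09-fold by the ratio of means, or 1.65 on the log2 scale (SE 0.155, p-adj = 1.72e-06), against mAM_WT and 2.81-fold, or 1.49 (SE 0.165, p-adj = 1.29e-05), against mAM_KO in limma. Of all genes tested, 94.5% were at or below this difference in Imm_KO against mAM_WT, as were 87.9% for *Oaz2*. Between mAM_KO and mAM_WT, the *Smox* difference was 0.16 with a 95% interval of −0.18 to 0.49 (p-adj = 0.570, limma).

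Levels were compared between genes as CPM per kb of annotated exon. In mAM_WT, *Sat1* was highest at 143 ± 13.7 CPM per kb, followed by *Oaz1* at 92.0 ± 17.4 and *Amd1* at 32.0 ± 5.18. *Odc1* (21.0 ± 2.77), *Azin1* (20.7 ± 3.17) and *Srm* (19.0 ± 2.99) came next and did not differ from each other beyond their spread. *Oaz2* (5.10 ± 0.515), *Smox* (4.34 ± 0.916) and *Sms* (3.08 ± 0.287) were lowest, with the first pair also within their spread. In Imm_KO, *Sat1* was at 123 ± 2.15, and *Smox*, at 13.4 ± 0.987 CPM per kb, stood level with *Srm* at 13.8 ± 0.514 and close to *Odc1* at 15.7 ± 0.449. *Oaz2* was at 9.23 ± 0.661 CPM per kb there. These levels were measured on 286 to 16262 reads per gene and library.

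**Figure D3:**
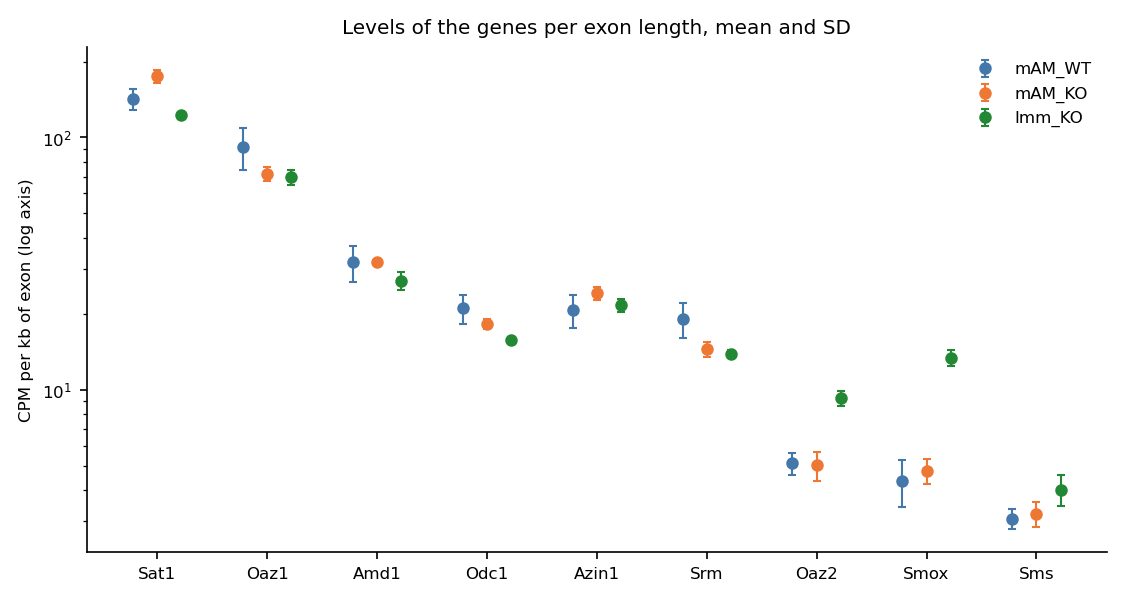
Mean CPM per kb of exon (log axis) of the 9 genes in the 3 groups, with SD bars, n = 4, 3 and 3, ordered by the level in mAM_WT. *Smox* moves from 4.34 in mAM_WT to 13.4 in Imm_KO, next to *Srm* and *Odc1*.

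Ratios of CPM within a library do not depend on the scaling between libraries, and are given without a test. The ratio of *Smox* to *Sat1*, the enzymes of breakdown, was 0.0430 ± 0.00962 in mAM_WT, 0.0383 ± 0.00462 in mAM_KO and 0.153 ± 0.0139 in Imm_KO. Because *Sat1* was chosen by its values in these groups, this ratio is not independent of that choice. The ratio of *Oaz2* to *Oaz1* was 0.0665 ± 0.0132, 0.0821 ± 0.0166 and 0.155 ± 0.00666 in the same order. For both, every Imm_KO library was above every mAM library, and the mAM groups overlapped. The ratio of *Azin1* to *Odc1*, the inhibitor of antizyme and the enzyme that antizyme removes, was 1.80 ± 0.0865 in mAM_WT, 2.43 ± 0.144 in mAM_KO and 2.53 ± 0.142 in Imm_KO. Here the Cre+ groups lay together above all controls, except that the 4th mAM_KO library, at 1.67, lay below them all. *Odc1* over the sum of *Oaz1* and *Oaz2* was 0.295 ± 0.0770, 0.314 ± 0.0313 and 0.262 ± 0.0253. The mAM_KO and Imm_KO libraries did not overlap (lowest 0.292 against highest 0.290), and both groups lay within the mAM_WT range of 0.196 to 0.361. With the 4th mAM_KO library, at 0.225, mAM_KO and Imm_KO overlapped. *Sms* over *Srm* was 0.627 ± 0.155, 0.833 ± 0.0630 and 1.09 ± 0.134.

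**Figure D4:**
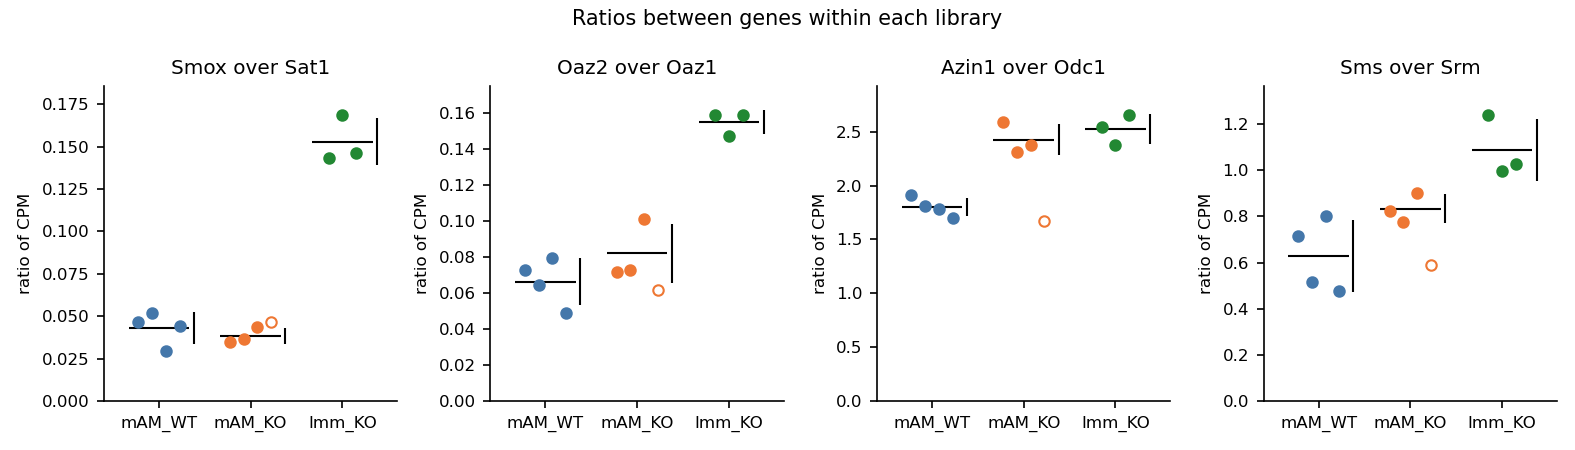
Ratio of CPM of gene pairs within each library (points), with group mean and SD, from an axis that starts at 0. The open point is mAM_KO replicate 4, which is not in the mean. The ratios of *Smox* to *Sat1* and of *Oaz2* to *Oaz1* are highest in the 3 Imm_KO libraries. The former contains *Sat1*, which was chosen by its values.

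A list of 32 other genes of the pathway was read in the same fit, and 27 of them were in the table. In mAM_KO against mAM_WT, 1 was higher and 1 was lower, beside 2.25% and 2.59% of all genes tested. *Arg2*, the mitochondrial arginase, rose from 0.751 ± 0.411 to 2.37 ± 1.04 CPM (log2 difference 1.72, p-adj = 0.0453, limma). Its control libraries held only 8 to 49 reads, and the groups overlapped (1.25 CPM in mAM_KO replicate 2, 1.31 in mAM_WT replicate 1). *Slc7a1*, an arginine transporter, fell from 32.1 ± 2.61 to 22.1 ± 5.27 CPM (log2 difference −0.56, p-adj = 0.0355, limma). Both calls were lost when only these groups were fitted (p-adj = 0.117 and 0.0852, limma), and each of the 10 fits with a library left out lost at least 1 of them, with p-adj up to 0.165 for *Arg2* and 0.125 for *Slc7a1*. In Imm_KO against mAM_WT, 8 of the 27 were higher (beside 22.8% of all genes) and 13 lower (beside 25.3%). In Imm_KO against mAM_KO, 8 were higher (beside 17.7%) and 10 lower (beside 20.2%). The medians of the 27 genes in these comparisons were −0.17 and −0.13 on the log2 scale beside 0.00 and −0.01 over all genes.

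Of 7 genes of arginine and ornithine supply, 5 were higher and 2 lower in Imm_KO against mAM_WT, where 22.8% of all genes were higher and 25.3% lower. These and the following lists are given as counts, and no difference from the other genes was tested. *Arg2* stood at 14.7, 15.1 and 15.2 CPM in Imm_KO against 0.319 to 1.31 in mAM_WT (log2 difference 4.49, p-adj = 2.61e-06, limma). *Arg1*, the cytosolic arginase, stood at 2.83 to 3.59 CPM against 0.131 to 0.623 (3.39, p-adj = 8.15e-04, limma), a low level in all groups. *Slc25a15*, *Slc7a2* and *Slc7a1*, carriers of ornithine and arginine, were higher by 0.64, 0.52 and 0.43, while the exporter *Slc7a7* and the ornithine aminotransferase *Oat* fell by 0.50 and 0.31. *Slc7a1* was thus lower than the controls in mAM_KO and higher than them in Imm_KO, although each of these calls was lost in some fits with a library left out.

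Of 7 genes that supply S-adenosylmethionine or salvage the methylthio group left by polyamine synthesis, 5 were lower in Imm_KO against mAM_WT and 0 higher, beside 25.3% and 22.8% of all genes. They were *Mri1* (−0.77), *Enoph1* (−0.55), *Apip* (−0.46) and *Mtap* (−0.36) of the salvage pathway and *Mat2b* (−0.34), a subunit of methionine adenosyltransferase. *Eif5a*, the translation factor that carries hypusine made from spermidine, fell from 597 ± 19.6 to 320 ± 11.5 CPM (−0.90, p-adj = 4.28e-08, limma), while *Eif5a2*, *Dhps* and *Dohh* did not pass. *Myc*, which can activate *Odc1* transcription, and *Pmf1*, a transcriptional cofactor for *Sat1*, fell by 0.77 and 0.98.

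Among paralogs, *Paox*, the oxidase of acetylated polyamines, rose in Imm_KO against mAM_WT (5.93 ± 0.824 to 15.3 ± 3.13 CPM, log2 difference 1.36, p-adj = 1.19e-04), as *Smox* did. *Sat2* fell from 1.37 ± 0.464 to 0.282 ± 0.0699 CPM (−2.26, p-adj = 0.00169, limma). *Amd2* was lower in mAM_KO than in Imm_KO (log2 difference of Imm_KO against mAM_KO 2.45, p-adj = 0.0181, limma), at 0.115 to 0.305 and 0.686 to 2.86 CPM, and this call was lost without Imm_KO replicate 4 (1.81, p-adj = 0.116) and without mAM_KO replicate 1 (2.01, p-adj = 0.0606, limma). Of the transport genes, *Slc3a2* and *Slc18b1* were higher in Imm_KO against mAM_WT by 0.40 and 0.73, and the lysosomal and endosomal polyamine exporters *Atp13a2* and *Atp13a3* were lower, by −0.33 and −0.45.

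**Figure D5:**
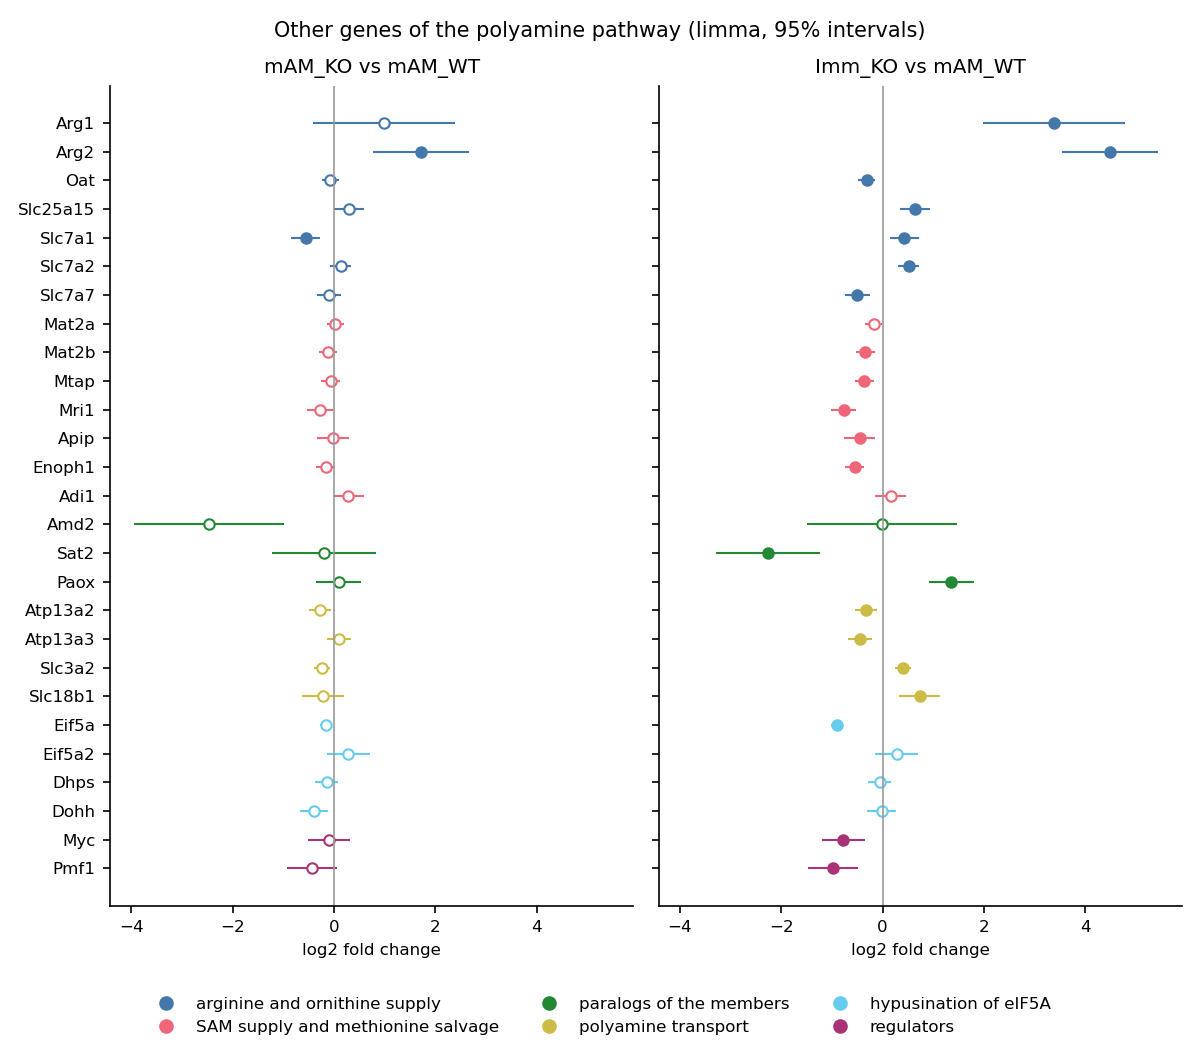
Log2 fold change of the 27 other pathway genes (x axis) with 95% intervals of the limma fit, coloured by list, for the comparisons with mAM_WT. Filled points are called at a p-adj under 0.05. In mAM_KO only *Arg2* and *Slc7a1* are filled, and in Imm_KO *Arg2* and *Arg1* lie farthest to the right.

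Over the 11 libraries, the genes whose log2 values followed *Sat1* most closely were *Trim30a* (Pearson r = 0.951), *Nol11* (0.942), *Trim12c* (0.939), *Prkaa1* (0.936) and *Ulk2* (0.929), among the 9958 genes that averaged 5 CPM or more. The libraries fall into 3 groups that differ in *Sat1*, so r is a description of likeness. *Prkaa1*, a catalytic subunit of AMPK, stood at 89.0 to 119 CPM in mAM_WT, 126 to 136 in mAM_KO replicates 1 to 3, 102 in mAM_KO replicate 4 and 73.0 to 87.3 in Imm_KO. Of the other 8 polyamine genes, *Amd1* was the closest to *Sat1* (r = 0.734), and *Oaz2* (−0.674) and *Smox* (−0.645) ran most against it, as their group levels do.

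Some of these transcripts share sequence with other genes, whose reads RSEM divides by estimate. Of the 60-base windows of its transcripts, *Amd1* shared 75.9% with other genes, chiefly *Amd2*, *Odc1* shared 20.9% (*Gm17709*), *Oaz1* 19.5% (*Oaz1-ps*), *Sms* 17.2% (*Sms-ps*) and *Oaz2* 5.22%, while *Sat1* (1.76%), *Srm* (0.718%), *Azin1* (0%) and *Smox* (0%) shared few or none. *Oaz1-ps* was itself at 73.0 ± 8.31 CPM in mAM_WT, 64.3 ± 7.17 in mAM_KO and 35.7 ± 8.11 in Imm_KO. When each copy was added to its gene, *Oaz1* was still lower in Imm_KO against mAM_WT (−0.52, p-adj = 5.63e-04), whereas *Sms* no longer passed (0.26, p-adj = 0.111, limma). This sum was chosen after the values had been seen.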

How the data were processed

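Single-end reads of 60 bases were trimmed with Cutadapt, and the authors quantified genes with RSEM 1.3.1 on the GRCm38 transcriptome, applied TMM scaling in limma and retained genes that reached 1 CPM in 3 samples. The deposited CPM values are whole reads plus 0.5, times a fixed step per library, and returned whole reads within 0.01 for 100% of values. Log2 of the deposited values was fitted, without a pseudocount, in limma 3.58.1 (R 4.3.3; 3 group means, eBayes with a variance trend, two-sided) over 12889 genes of 10 libraries, with Benjamini-Hochberg adjustment and a threshold of 0.05. As in the study's legends and the columns of its supplementary table, n was 4, 3 and 3 and mAM_KO replicate 4 was left out. On the recovered reads, edgeR 4.0.16 called 566 genes and DESeq2 1.42.0 called 1352 in mAM_KO against mAM_WT, where limma called 624. Positions, exon lengths and shared windows come from GENCODE vM21 (12927 of 12932 genes found), and promoters from a RefSeq table in which 7 of the 9 genes were matched. Named genes are the 9 genes, every other pathway gene called, *Rxra*, *Rxrb*, *Xist* and the 5 genes most like *Sat1*. The fits were tested on simulated data. The members and lists were chosen with earlier results of these data known. Per the labels, sequencing was on a HiSeq-2500, while the design text and the study's methods name a NextSeq system, and the cells came from lung digestion or from lavage depending on the source. The alternatives tried were a fit with mAM_KO replicate 4, a pseudocount (0.5 or 1), the filter removed or raised to 5 CPM, other scalings, edgeR, DESeq2, limma-voom, the groups compared alone, no variance trend, a replicate block, *Xist* as a covariate, and each library left out. A fit with genes summed with their copies was added after the values had been seen.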

Additional observations from a re-analysis of the deposited data

Results flagged for a closer look

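In groups of 4 libraries, the highest or lowest value was set against Dixon's 95% limit for each of the 9 genes in mAM_WT and in mAM_KO with its 4th library, which makes 18 groups. Of these, 1 exceeded the limit, where chance gives about 1 in 20: *Oaz1* in mAM_KO, whose replicate 4 held 306 CPM beside 170 to 193 CPM in the other 3 libraries. The gap to the nearest library was 0.831 of the whole range, just above the limit of 0.829. That library is not in the comparisons, and the values with it are given beside *Oaz1* and *Srm*.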

How the results depend on the processing

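For the members, 418 of 432 results under other alternatives and 253 of 270 with a library left out kept their direction and side of the threshold, *Sat1* counted by its spread alone. Some of these outcomes were fixed. The *Sat1* difference cannot change where only the filter, the variance trend or the group outside the comparison is altered. The 432 include the sum of genes with their copies, which was chosen after the values had been seen. In mAM_KO against mAM_WT, DESeq2 called 2 of the 8 genes in place of 0, and leaving out a library gave 0 to 1 (*Oaz1*, without mAM_WT replicate 1, p-adj = 0.0332 in limma). In Imm_KO against mAM_WT, leaving out a library gave 4 to 7 calls, beside 5027 to 6317 over all genes and 6194 in the main fit. In Imm_KO against mAM_KO, the fit of only these groups called 4, *Odc1* and *Amd1* being added as lower, and leaving out a library gave 2 to 4, the 4 without mAM_WT replicate 4. Over all genes, these fits called 5042 and 3971 to 5278, beside 4891 in the main fit. For the other pathway genes in mAM_KO against mAM_WT, the count of 2 became 5 with DESeq2, 1 with limma-voom, 0 without a variance trend, 0 with only the groups compared, 0 with the replicate block and 0 to 3 with a library left out. Over all genes, the 624 calls of the main fit became 1352, 528, 122, 195, 174 and 162 to 861 in the same order. The counts of members and pathway genes were not told apart from these shifts. In Imm_KO against mAM_WT, leaving out a library gave 19 to 22 such calls, with *Apip*, *Atp13a2* and *Slc7a1* lost in some of these fits, and 13 to 19 in Imm_KO against mAM_KO. Directions turned only where differences were near 0. In mAM_KO against mAM_WT, *Amd1* came to −0.0209 with the replicate block and to −0.0911 to 0.103 with a library left out, *Sms* to −0.0297 to 0.121, and *Oaz2* to 0.0564 with all 11 libraries and −0.135 to 0.0396 with a library left out. In Imm_KO against mAM_WT, *Azin1* ran from −0.0382 to 0.142. In Imm_KO against mAM_KO, *Oaz1* came to 0.00210 with quantile normalization, 0.00403 with *Xist* as a covariate and −0.102 to 0.00722 with a library left out. The cause was not tested. For libraries of the same replicate number, correlations of deviations from the group mean ran from −0.129 to 0.246. The highest was that of replicate 4 in mAM_KO and mAM_WT. Whether libraries of the same number belong together was not tested. With the number as a block, 6 and 2 of the 8 genes were called in Imm_KO against mAM_WT and mAM_KO, as without it, and over all genes 174 in place of 624 in mAM_KO against mAM_WT, where DESeq2 called 1352 and the fit of only these groups 195. The 95% intervals of the 8 genes in mAM_KO against mAM_WT lie between −0.64 and 0.49.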
